A study of Mus musculus with 8 samples.

Results

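Transcripts of the insulin-like growth factor (IGF) system were measured in mouse embryonic fibroblasts (MEFs) after conditional loss of H3f3b. All probes for the ligands Igf1 and Igf2, the receptors Igf1r and Igf2r, and the binding proteins Igfbp2, Igfbp3, Igfbp4, Igfbp5, Igfbp6 and Igfbp7 were taken, which gave 14 probes of 10 genes, among 25697 probes and 16593 genes with a symbol. All cells were H3f3b Fl/Fl, strain C57BL6J, from E12.5 embryos. Both arms therefore carried the floxed alleles, and each received a retrovirus. The Cre arm received CRE-IRES-GFP and the GFP arm received IRES-GFP, on 4 arrays each. Cells came from the lines cKO1, cKO2 and pcKO1. The cKO2 line was hybridized in duplicate in each arm, and its duplicates were averaged, since the methods of the study call the conditional duplicates analytical. The results of the study speak of biological replicates of the conditional knockout cells, without saying which arrays these are. Per the methods of the study, such cultures are made from embryos without head and visceral organs, and the floxed segment holds the coding exons of H3f3b.

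The IGF ligands are secreted growth factors of the embryo. Both act through Igf1r, a receptor tyrosine kinase that signals to the PI3K-AKT and MAP kinase pathways, while Igf2r, also the receptor for mannose 6-phosphate, takes up Igf2 and delivers it to lysosomes. In mice Igf2 is expressed from the paternal allele and Igf2r mainly from the maternal allele in most tissues. The Igfbp proteins bind the ligands outside the cell, prolong their life and limit or direct their access to the receptor. Igfbp7 is a more distant relative that binds IGFs weakly.

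Of the 8 IGF genes tested, Igfbp2, Igf2 and Igfbp5 differed most between the lines. The RefSeq promoters of these genes are shown because the results turn on them, each from 250 bases before to 50 bases after a transcription start. They are in assembly GRCm38.p6, written 5′ to 3′ on the strand of the gene. Capitals mark the GC box GGGCGG, searched on both strands, so that its complement CCGCCC is marked as well. Where RefSeq lists several starts of a gene, the promoter with most CpG dinucleotides is given.
Igfbp2 (chr1:72824230-72824529, plus strand): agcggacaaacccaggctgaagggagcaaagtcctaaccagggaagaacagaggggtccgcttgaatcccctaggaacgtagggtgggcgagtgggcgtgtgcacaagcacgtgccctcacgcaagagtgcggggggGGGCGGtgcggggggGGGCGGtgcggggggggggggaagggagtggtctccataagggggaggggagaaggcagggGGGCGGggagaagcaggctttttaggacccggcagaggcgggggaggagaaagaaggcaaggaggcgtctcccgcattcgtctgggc
Igf2 (chr7:142658755-142659054, minus strand): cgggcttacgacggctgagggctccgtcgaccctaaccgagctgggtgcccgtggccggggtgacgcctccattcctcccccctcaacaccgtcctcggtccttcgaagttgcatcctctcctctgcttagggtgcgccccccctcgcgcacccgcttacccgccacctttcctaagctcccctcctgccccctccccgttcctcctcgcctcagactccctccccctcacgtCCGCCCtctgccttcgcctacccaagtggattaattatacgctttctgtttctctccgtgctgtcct
Igfbp5 (chr1:72874816-72875115, minus strand): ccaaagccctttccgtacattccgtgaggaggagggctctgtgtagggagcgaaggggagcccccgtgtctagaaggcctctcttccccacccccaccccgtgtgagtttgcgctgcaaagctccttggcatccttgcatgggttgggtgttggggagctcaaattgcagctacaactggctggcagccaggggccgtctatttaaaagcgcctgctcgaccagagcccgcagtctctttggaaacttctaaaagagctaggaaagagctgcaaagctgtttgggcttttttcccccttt
All 10 genes matched the RefSeq promoter table, with 14 promoters. GGGCGG was in 6 of these promoters, which belong to 5 genes, against 35.7% of all 32851 promoters of the same length. The Igfbp2 promoter shown held it 3 times and the Igf2 promoter shown held it once, while no match was in the Igfbp5 window. The second Igfbp2 promoter held it 0 times. The promoters shown had 18 CpG dinucleotides for Igfbp2, 24 for Igf2 and 10 for Igfbp5. The median was 7 over all promoters, but those of Igfbp2 and Igf2 were picked for most CpG. The second Igfbp2 promoter had 14 and the other Igf2 promoters had 2, 14 and 7. The TATA box TATAAA, searched on both strands, was in the promoters of Igfbp4 and Igfbp6 only among these genes, against 13.6% of all promoters. The Igfbp2 and Igfbp5 genes lie next to each other on chromosome 1 with their ends 5.59 kb apart.

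Signal was read on a scale of normalized log2 intensity, on which the median of all probes was 6.49. A ceiling for background was set at 6.61, the 95th percentile of the 11878 probes detected on no array. Detection of a probe is known per arm only, since the table with detection p-values does not use the names of the lines. There, 1 cell name stands for 2 of the 4 pairs of Cre and GFP columns, in 1 of them marked as pooled, so whether the 3 lines are of 3 separate embryos is not settled by the names. The target transcript H3f3b, which checks the labels, was at 6.73 after Cre and 12.05 with GFP in cKO1. It was at 7.41 after Cre and 12.52 with GFP in cKO2, and at 9.77 after Cre and 11.94 with GFP in pcKO1. It was thus lower after Cre in each line, least so in pcKO1, with a limma adjusted p of 0.188. Of 11 fibroblast markers measured, all 11 were detected on at least 3 arrays and 8 on every array. Some markers of other cells stood apart in pcKO1. Lyz2, a lysozyme of macrophages, was at 11.65 after Cre and 12.31 with GFP in pcKO1, and no array of the other lines was above 6.55. Adgre1 and Tyrobp, also of macrophages, were at 8.66 and 8.11 after Cre and at 8.84 and 8.20 with GFP in pcKO1, while Ptprc, a marker of all leukocytes, was detected on 0 arrays. The deposited intensities of the 4 macrophage markers measured summed to 4149 after Cre and 6224 with GFP in pcKO1, against 470 to 580 in the other lines. The muscle actin Acta1 (10.69 after Cre and 11.07 with GFP) and Lpl of adipocytes (9.26 and 9.29) also stood out in pcKO1, where neither was above 6.81 in the other lines. Other markers of muscle and adipocytes did not follow them. Myf5, Chrna1, Ckm and Actc1 of muscle and Fabp4 of adipocytes were detected on 0 arrays. Tnnt1 of muscle was highest in cKO2 and Pparg of adipocytes in cKO1.

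The levels of the IGF genes by line were examined first. In all, 8 of the 10 genes had a probe that passed the filter of detection on at least 3 of 8 arrays. Igfbp3 and Igfbp6, each detected on 1 Cre and 1 GFP array, did not. For each of the 8 genes but Igf1r, the range over lines with GFP was wider than the Cre minus GFP difference of any line. The range over the 3 GFP levels was at least 1 (log2) for 7 of the 8 genes tested, against 18.2% of all 8488 genes tested. The median range was 1.63 for the 8 genes and 0.53 for all genes. Igfbp2 had the 2nd widest range of all genes and Igf2 the 3rd, also with every level under the background ceiling set to that ceiling. The lowest GFP level of Igfbp5 was under the ceiling, so that its range was at least 3.02.

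**Figure D1:**
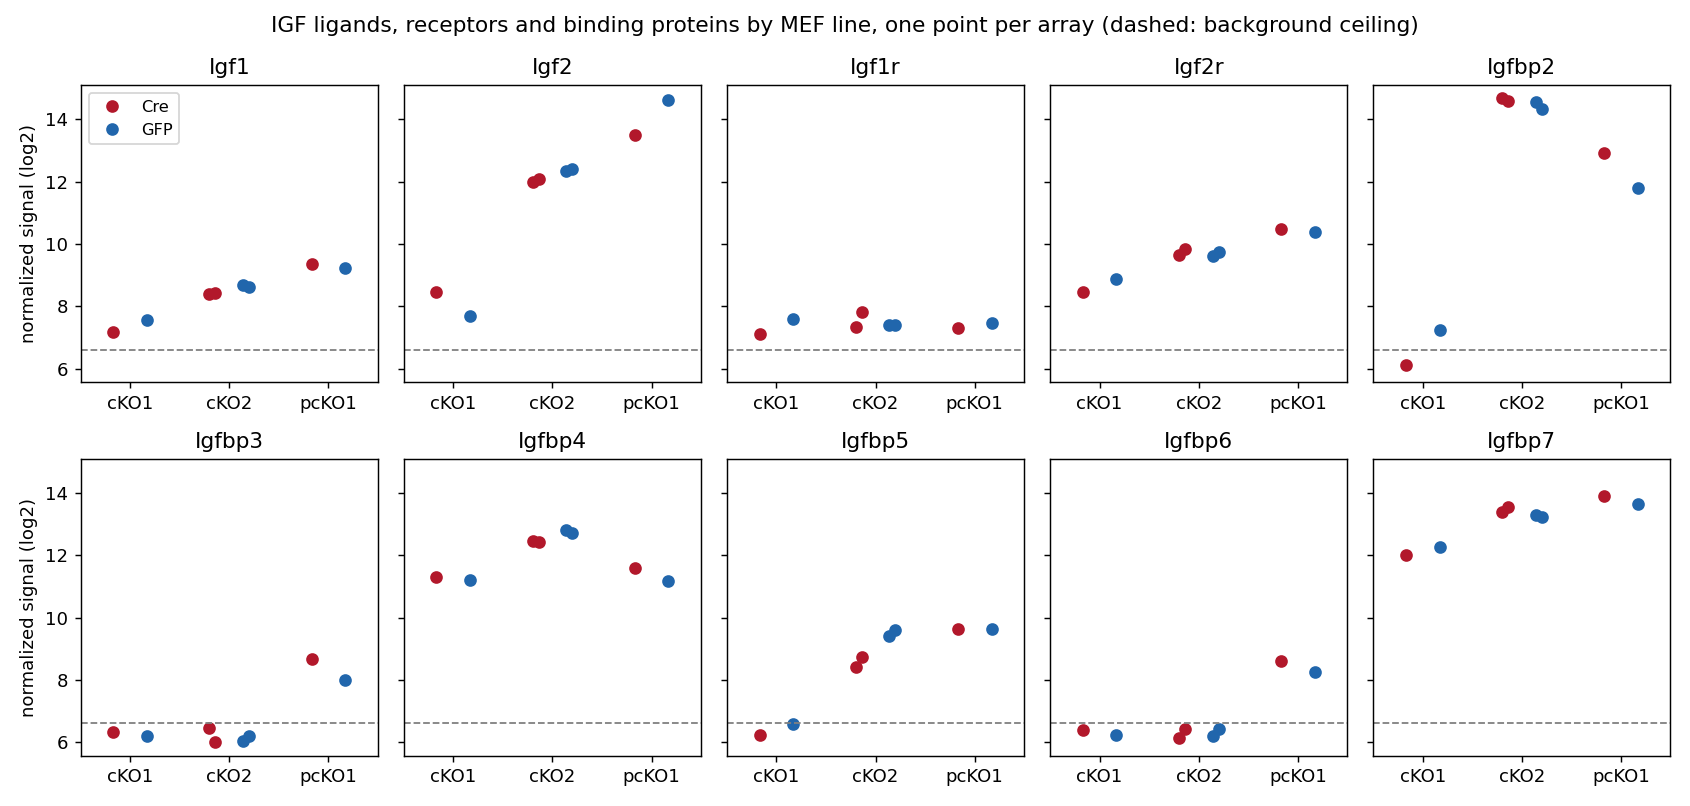
Normalized log2 signal (y axis) of each of the 10 IGF genes by MEF line (x axis), 1 point per array, with Cre in red left of GFP in blue and the background ceiling of 6.61 as a dashed line. For genes with several probes the brightest is shown. Igf2 and Igfbp2 are low in cKO1 and high in the other lines, Igfbp3 and Igfbp6 are above the ceiling in pcKO1 alone, and the points of Igf1r lie close together.

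Among the ligands, Igf2 (chr7:142650768-142666816) spanned the wider range. It was at 8.47 after Cre and 7.70 with GFP in cKO1. In cKO2 it was at 11.98 and 12.08 after Cre and at 12.33 and 12.42 with GFP, and in pcKO1 at 13.49 after Cre and 14.62 with GFP. The lines did not overlap, with cKO1 lowest and pcKO1 highest in each arm. In the Cre arm cKO1 was 32.3-fold below pcKO1 and 11.8-fold below cKO2, and in the GFP arm it was 121-fold below pcKO1 and 25.5-fold below cKO2. Igf1 (chr10:87858265-87937047) kept the same order in a narrower range. It was at 7.17 after Cre and 7.56 with GFP in cKO1, and at 9.36 after Cre and 9.23 with GFP in pcKO1. In cKO2 it was at 8.40 and 8.43 after Cre and at 8.68 and 8.63 with GFP.

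The receptors differed from each other in this respect. Igf1r (chr7:67952257-68233668) was at 7.12 after Cre and 7.60 with GFP in cKO1, and at 7.29 after Cre and 7.47 with GFP in pcKO1. In cKO2 it was at 7.32 and 7.81 after Cre and at 7.41 on both GFP arrays. Its lines overlapped, and its GFP range of 0.19 was smaller than the 0.49 between the Cre duplicates of cKO2. Igf2r (chr17:12682406-12769706) was at 8.47 after Cre and 8.88 with GFP in cKO1. In cKO2 it was at 9.65 and 9.85 after Cre and at 9.61 and 9.73 with GFP, and in pcKO1 at 10.48 after Cre and 10.40 with GFP. The lines did not overlap, and a second Igf2r probe gave the same order of lines in both arms, with a GFP range of 1.30 against 1.51.

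Of the binding proteins, Igfbp2 (chr1:72824480-72852474) had the widest range. It was at 6.11 after Cre and 7.24 with GFP in cKO1, so that only the Cre value lay under the background ceiling. In cKO2 it was at 14.67 and 14.58 after Cre and at 14.55 and 14.34 with GFP, and in pcKO1 at 12.93 after Cre and 11.81 with GFP. The lines thus did not overlap, and cKO2 rather than pcKO1 was highest. In the Cre arm, with the cKO1 value set to the background ceiling, cKO1 was at least 259-fold below cKO2 and at least 79.8-fold below pcKO1. In the GFP arm it was 147-fold below cKO2 and 23.7-fold below pcKO1. A second Igfbp2 probe was at 6.03 after Cre and 6.84 with GFP in cKO1, again with only the Cre value under the ceiling. By this probe cKO1 was at least 184-fold below cKO2 in the Cre arm and 124-fold below it in the GFP arm.

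Igfbp5 (chr1:72858065-72874865), whose protein also binds extracellular matrix, was at 6.25 after Cre and 6.59 with GFP in cKO1, both under the background ceiling. It was at 8.41 and 8.76 after Cre and 9.42 and 9.61 with GFP in cKO2, and at 9.65 after Cre and 9.63 with GFP in pcKO1. In the Cre arm cKO1 was at least 8.23-fold below pcKO1 and at least 3.93-fold below cKO2. In the GFP arm it was at least 8.13-fold below pcKO1 and at least 7.50-fold below cKO2. With GFP, pcKO1 and cKO2 differed by 0.12, less than the 0.19 between the GFP duplicates of cKO2.

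Igfbp4 (chr11:99040005-99052655), a binding protein that the protease Pappa cleaves, was at 11.30 after Cre and 11.20 with GFP in cKO1. In cKO2 it was at 12.46 and 12.45 after Cre and at 12.83 and 12.71 with GFP, and in pcKO1 at 11.60 after Cre and 11.17 with GFP. Here cKO2 stood above the other lines, while cKO1 and pcKO1 differed by 0.03 with GFP, less than the 0.12 between the GFP duplicates. A second Igfbp4 probe gave a wider GFP range of 1.97, against 1.59. Igfbp7 (chr5:77349240-77408045) was at 12.01 after Cre and 12.26 with GFP in cKO1. It was at 13.40 and 13.56 after Cre and 13.29 and 13.24 with GFP in cKO2, and at 13.92 after Cre and 13.65 with GFP in pcKO1. It was lowest in cKO1 in both arms, and a second Igfbp7 probe, detected on 0 arrays, stayed between 5.94 and 6.31.

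Igfbp3 (chr11:7206086-7215498), the main carrier of IGFs in serum, was at 8.67 after Cre and 8.02 with GFP in pcKO1. On the arrays of the other lines it lay between 6.01 and 6.48, under the background ceiling. Igfbp6 (chr15:102144186-102149512), which prefers Igf2 over Igf1, was at 8.60 after Cre and 8.25 with GFP in pcKO1 and between 6.15 and 6.44 elsewhere. In pcKO1, Igfbp3 was at least 4.18-fold after Cre and at least 2.66-fold with GFP above the other lines. For Igfbp6 these bounds were 3.98-fold after Cre and 3.12-fold with GFP. Neither gene was tested, because each failed the filter. The macrophage markers Lyz2, Adgre1 and Tyrobp also stood above background in pcKO1 alone. Acta1, Lpl and the fibroblast markers Lum and Thy1 stood out in pcKO1 as well. Lum was at 9.69 after Cre and 8.88 with GFP there, against at most 6.88 elsewhere. Thy1 was at 13.43 and 13.31, against at most 8.86. The fibroblast markers Vim and Prrx1 were highest in cKO1 instead. The part of any of these markers in the levels of Igfbp3 and Igfbp6 was not tested. In such cultures fewer cells of a type and less RNA per cell cannot be told apart.

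The lines were then compared over both arms by limma, with the arm as a covariate and Benjamini-Hochberg adjustment over all 8488 genes. By the F test over the 3 lines, 7 of the 8 IGF genes passed at an adjusted p under 0.05, against 44.7% of all genes. Igf1r, with an adjusted p of 0.812, did not. The spread in this fit is that of the line by arm residual. It takes in how far the Cre minus GFP difference varied between lines, along with error between arrays. With 1 array in each arm of cKO1 and pcKO1, these p-values say nothing of other embryos.

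Against cKO2, the same 7 genes were lower in cKO1 (19.3% of all genes were) and 0 were higher (18.4% of all genes). For Igfbp2 and Igfbp5, of which 1 and both cKO1 means were under the background ceiling, only a bound can be given, read with those means set to the ceiling. Igfbp2 differed most, at -7.61 (log2) or lower, with a limma adjusted p of 9.09e-06 for the levels as measured and 5.11e-05 with the ceiling as floor. Igf2, above the ceiling on every array, followed at -4.12 ± 0.36 (SE, limma adjusted p = 0.000113). Igfbp5 was at -2.44 (log2) or lower, with limma adjusted p-values of 0.000122 as measured and 0.00096 with the floor. Igfbp4, Igfbp7, Igf1 and Igf2r had smaller differences of -1.36, -1.24, -1.17 and -1.04. With the pcKO1 arrays left out of the fit, these 7 genes passed as well, while Igf2r no longer passed without the Cre mean of cKO2 (adjusted p = 0.0824). The deposited intensities of the fibroblast markers also summed to less in cKO1, at 25220 after Cre and 30870 with GFP, against 32480 and 35050 in cKO2. Among single markers, Dcn was at 5.9 after Cre and 6.2 with GFP in cKO1, against 10.7 to 11.2 in cKO2. Col1a2 was at 7.51 and 8.66 in cKO1, against 10.56 to 11.09 in cKO2, and Col3a1 at 7.12 and 7.88, against 9.06 to 9.80. Others ran the other way, since Vim was at 14.35 on both cKO1 arrays, against 13.92 to 14.04 in cKO2. Prrx1 was at 8.64 after Cre and 8.94 with GFP in cKO1, against 6.83 to 7.05 in cKO2. Pdgfra was mixed, at 7.58 after Cre in cKO1, against 7.20 and 7.22 in cKO2, and at 7.28 with GFP, against 7.34 and 7.66. The part of these markers in the differences was not tested.

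Against pcKO1, 6 of the 8 genes were lower in cKO1 (15.3% of all genes) and 0 were higher (13.8% of all genes). Igf2 had a difference of -5.97 ± 0.36 (SE, limma adjusted p = 3.06e-05) and Igfbp2 one of -5.44 or lower (limma adjusted p = 6.89e-05 as measured and 0.000244 with the floor). Igfbp5 was at -3.03 or lower, and Igf1, Igf2r and Igfbp7 had differences of -1.93, -1.76 and -1.65. Igfbp4 was the gene that passed against cKO2 and not against pcKO1, with a difference of -0.14 ± 0.18 (SE) and an adjusted p of 0.620. Both marker sums moved with these lines, that of macrophages being 580 after Cre and 470 with GFP in cKO1, against 4149 and 6224 in pcKO1. That of fibroblasts was 25220 after Cre and 30870 with GFP in cKO1, against 42960 and 39550 in pcKO1. Among its markers, Thy1 was at 7.42 after Cre and 6.72 with GFP in cKO1, against 13.43 and 13.31 in pcKO1. Vim and Prrx1 ran the other way. Vim was at 14.35 on both cKO1 arrays, against 14.03 and 14.06, and Prrx1 at 8.64 and 8.94, against 8.31 and 8.45. The part of either sum in these differences was not tested.

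Between pcKO1 and cKO2, Igfbp2 and Igfbp4 were lower in pcKO1, which makes 2 of 8 (9.97% of all genes). Igfbp2 differed by -2.16 ± 0.42 and Igfbp4 by -1.23 ± 0.18 (SE), with limma adjusted p-values of 0.00937 and 0.00352. Higher in pcKO1 were Igf2, Igf1 and Igf2r, 3 of 8 (9.8% of all genes), by 1.85 ± 0.36, 0.76 ± 0.19 and 0.72 ± 0.19 (SE). Their limma adjusted p-values were 0.00974, 0.0246 and 0.0289. For Igf2r the second probe gave smaller differences, 0.28 in the Cre arm and 0.41 in the GFP arm, against 0.73 and 0.72. The calls of Igf1 and Igf2r were lost without single line means. The adjusted p was 0.314 for Igf1 and 0.188 for Igf2r without the Cre mean of cKO2, 0.173 and 0.124 without the Cre mean of pcKO1, and 0.215 and 0.412 without the GFP mean of cKO2. The last of these also left Igfbp4 at 0.0561. Igfbp5 and Igfbp7 did not pass in this comparison, at 0.59 ± 0.23 and 0.42 ± 0.15 (SE). Both passed without either cKO1 mean or without the GFP mean of pcKO1, with adjusted p-values from 0.000191 to 0.0323. The high macrophage markers of pcKO1 stand beside each of the higher genes here, as do its high Thy1, Lum, Acta1 and Lpl. The fibroblast markers Col1a1, Col1a2 and Dcn were lower in pcKO1 than in cKO2. The part of these markers was not tested.

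**Figure D2:**
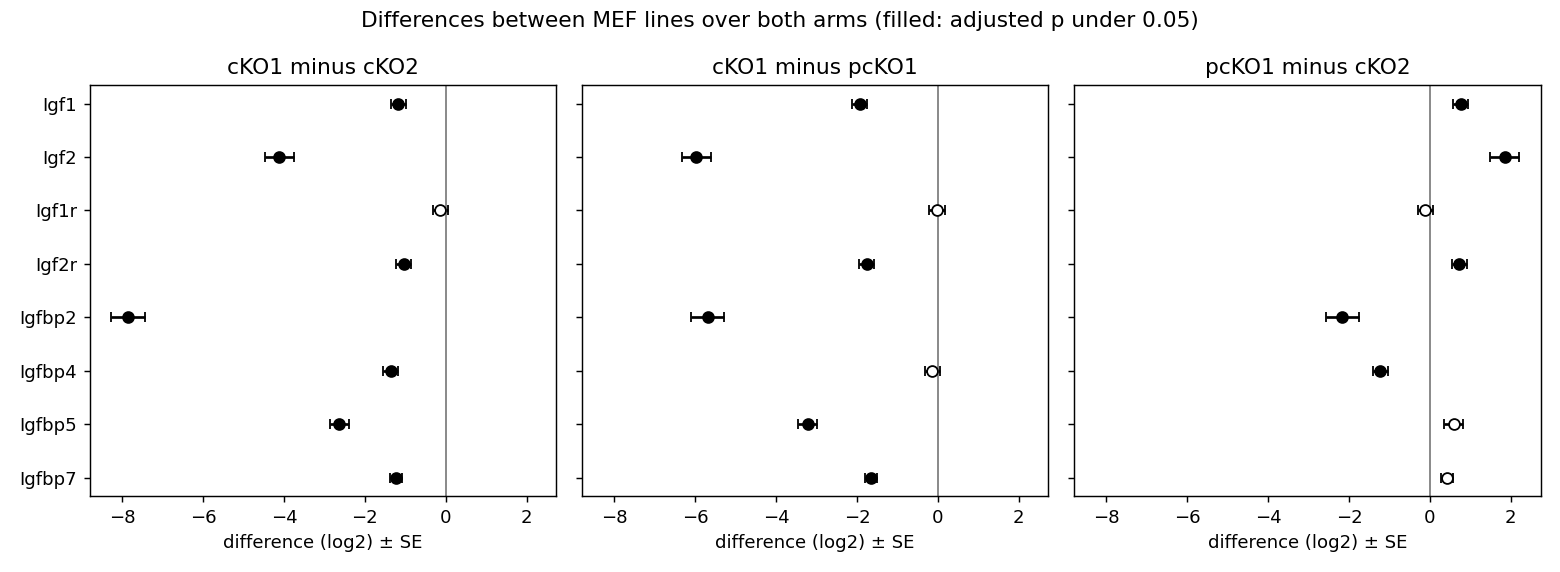
Differences between lines over both arms (x axis, log2, with the SE of the limma fit as bars) for the 8 IGF genes tested (y axis), as measured and filled where the adjusted p was under 0.05, so that for Igfbp2 and Igfbp5 against cKO1 the text gives bounds nearer to 0. In cKO1 minus cKO2 and cKO1 minus pcKO1 the filled points all lie left of 0, with Igf2 and Igfbp2 farthest, while pcKO1 minus cKO2 has filled points on both sides.

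The genes whose pattern over the 8 arrays lay closest to that of Igfbp2 were looked up among all genes tested, by the root mean square difference of log2 values centered on the mean of each gene. The closest was Grb10, an adapter protein that binds the insulin and IGF1 receptors and is imprinted in mice, at 0.93. Grb10 was at 6.21 after Cre and 6.52 with GFP in cKO1, at 12.70 after Cre and 12.78 with GFP in pcKO1, and at 12.92 after Cre and 12.93 with GFP in cKO2. Both of its cKO1 values were under the background ceiling, and its difference between pcKO1 and cKO2 was -0.19 (log2), against -2.16 for Igfbp2. Itm2a (1.10), Ptgis (1.16), Cyp1b1 (1.18) and Igdcc4 (1.18) came next. Each of these 4 was highest in cKO2 and lay under the ceiling of 6.61 in cKO1. The likeness describes 3 lines, since the arrays of a line share their cells.

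The main comparison of the study asked what changes when Cre removes H3f3b. Within the lines, 0 of the 8 IGF genes passed at an adjusted p under 0.05 in limma with the line as a block, against 0% of all 8488 genes. The target H3f3b itself did not pass in this fit (limma adjusted p = 0.188). That 0 IGF genes passed thus does not show that none changed. At an unadjusted p under 0.05 there were 312 genes, 0 of them IGF genes. The median log2 change was -0.13 over the 8 IGF genes and -0.0077 over all genes, with 5 of the 8 below 0. By line, the median of the 8 genes was -0.36 in cKO1, 0.10 in pcKO1 and -0.08 in cKO2, against -0.03, -0.01 and 0.01 over all genes. The SD of the change over all genes was widest in cKO1, at 0.42, against 0.26 in pcKO1 and 0.18 in cKO2. No IGF gene tested had the same sign in all 3 lines.

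The ligand Igf2 averaged 11.33 ± 2.58 after Cre and 11.57 ± 3.53 with GFP (SD over 3 lines). Its log2 change was 0.77 in cKO1, -1.13 in pcKO1 and -0.35 in cKO2 (-0.35 and -0.34 in the duplicate pairs). The mean change of -0.24 had a 95% interval from -0.91 to 0.43 and a limma adjusted p of 0.967. Igf1 was at -0.38 in cKO1, 0.13 in pcKO1 and -0.24 in cKO2, with a mean of -0.16 and an interval from -0.51 to 0.18. The receptors had intervals of similar width. Igf1r was at -0.48, 0.15 and -0.18 in cKO1, cKO2 and pcKO1 and had a mean of -0.17, with an interval from -0.53 to 0.19. Igf2r was at -0.42, 0.08 and 0.08, with a mean of -0.09 and an interval from -0.44 to 0.26.

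Among the binding proteins, Igfbp2 averaged 11.22 ± 4.50 after Cre and 11.16 ± 3.64 with GFP (SD over 3 lines). Its log2 change was -1.13 in cKO1, 1.12 in pcKO1 and 0.18 in cKO2. Its mean of 0.06 had an interval from -0.72 to 0.83 and a limma adjusted p of 0.996, and the second probe ran likewise at -0.81 in cKO1, 0.99 in pcKO1 and 0.34 in cKO2. In cKO1 the fold of Igfbp2 is bounded by background, which the Cre value had reached, and with that value set to the ceiling the mean of the 3 lines was 0.22. Igfbp5 had a mean change of -0.42 ± 0.19 (SE), with an interval from -0.85 to 0.02 and a limma adjusted p of 0.967. It was the largest mean of the 8 genes over all 3 lines, and cKO2 decided its size, since it was -0.16 without cKO2, -0.46 without cKO1 and -0.64 without pcKO1. Without cKO2 the means of Igf1r (-0.33), Igfbp4 (0.26), Igf2 and Igf2r were larger in size, and without cKO1 those of Igf2 and Igfbp2. Igfbp5 was at -0.34 in cKO1, where both arms were under the background ceiling, at -0.93 in cKO2 and at 0.02 in pcKO1. Its deposited intensities in cKO1 were 140.9 after Cre and 140.8 with GFP. With levels under the ceiling set to it, its change in cKO1 was 0. The means of Igfbp5 that include cKO1, among them -0.42 and -0.16, thus rest in part on levels under background, and only cKO2 had a drop above it. The duplicate pairs of cKO2 gave -1.01 and -0.85 for Igfbp5, more than the 0.35 between its Cre duplicates. Igfbp4 (0.09, -0.31 and 0.42 in cKO1, cKO2 and pcKO1) and Igfbp7 (-0.26, 0.21 and 0.27) had means of 0.07 each. In pcKO1, the line where they were above background, Igfbp3 was at 0.65 and Igfbp6 at 0.35, without a replicate and without a test.

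Leaving out cKO1 changed these calls for 2 of the 8 IGF genes, in a fit where 100 of all 8488 genes passed. Igf2, at -0.74, then had a limma adjusted p of 1.15e-08, and Igfbp2, at 0.65, one of 4.53e-07, in a fit with 1 residual degree of freedom, whose variance came from the prior over all genes. In cKO1 the levels of both genes were lower than in the other lines. Without pcKO1, Igf2 was at 0.21 and Igfbp2 at -0.47 and neither passed.

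**Figure D3:**
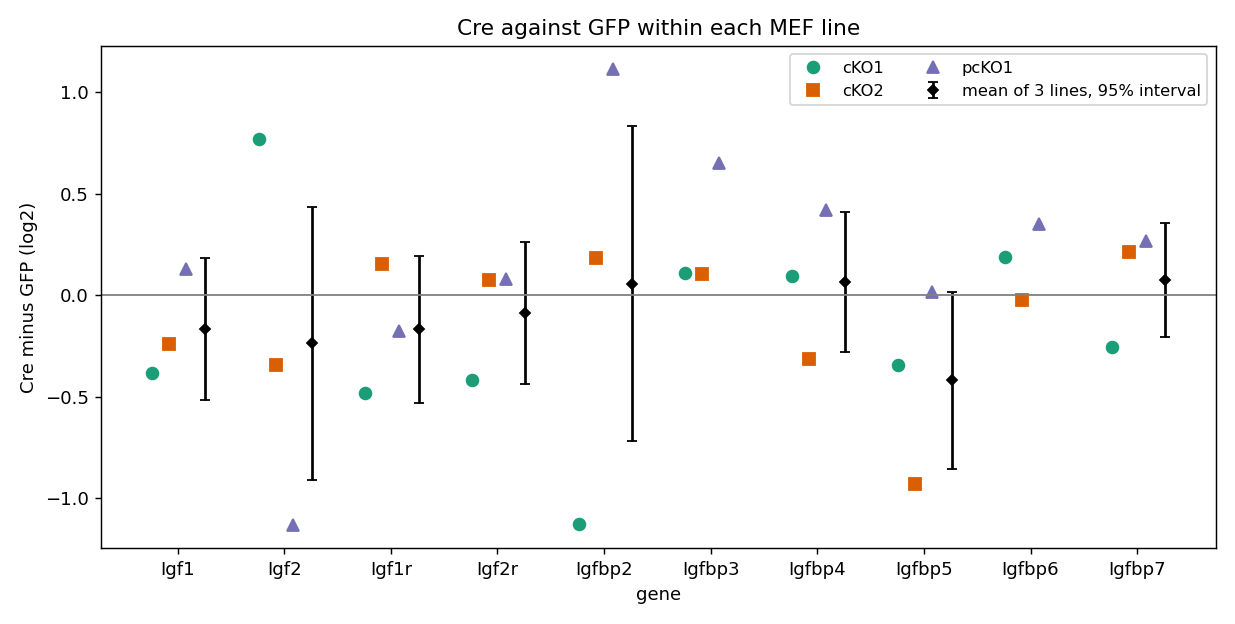
Cre minus GFP (y axis, log2) of the 10 IGF genes (x axis), with a point for each line and, for the 8 genes tested, a black diamond for the mean of 3 lines with its 95% interval. Every interval includes 0, Igf2 and Igfbp2 have lines on both sides of 0 that span 1.90 and, with the Cre value of cKO1 set to the background ceiling, at least 1.75, and Igfbp5 is lowest in cKO2 at -0.93.

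Whether the difference between Cre and GFP itself differed between lines was tested by the interaction of line and arm over all 8 arrays. The spread in this fit comes from the cKO2 duplicates alone, so its p-values cover the error between arrays and not that between cultures. By the limma F test, 5 of the 8 IGF genes passed, against 11.3% of all genes. They were Igfbp2 (adjusted p = 3.97e-06), Igf2 (1.47e-05), Igfbp4 (0.00886), Igfbp5 (0.0250) and Igfbp7 (0.0496). The change of Igf2 was 1.90 ± 0.18 (SE) higher in cKO1 than in pcKO1, and that of Igfbp2 was at least 1.75 lower, its Cre value in cKO1 being under the background ceiling. With levels under the ceiling set to it, the spans of the change over the lines put Igf2 at the 99.6th percentile of all genes and Igfbp2 at the 99.4th. In the fit with that floor 0 genes passed, of 1985 at an unadjusted p under 0.05, 6 of them IGF genes. There the cKO2 duplicates of 124 genes tied in both arms and left no spread, and the prior degrees of freedom were 1.71, against 14.7 as measured. Without these 124 genes 673 genes passed, 4 of them IGF genes, with adjusted p-values of 0.000672 for Igf2, 0.00156 for Igfbp2, 0.0227 for Igfbp4 and 0.0349 for Igfbp5, while Igfbp7 was at 0.0917. Loss of H3f3b signal also differed, being -5.32 in cKO1, -2.17 in pcKO1 and -5.11 in cKO2, and the summed macrophage markers of pcKO1 were lower after Cre (4149) than with GFP (6224). Their part in the interaction was not tested. The calls of Igfbp4, Igfbp5 and Igfbp7 were lost in some settings: the adjusted p was 0.0901 for Igfbp4 and 0.127 for Igfbp5 without pcKO1, and 0.93 for Igfbp7 and 0.0582 for Igfbp5 without cKO1.

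The rest of the pathway was read from lists. Of 38 genes of IGF receptor signaling, such as the adapters, PI3K, AKT and mTOR components, 30 were measured and 21 tested. In Cre against GFP 0 were lower and 0 higher, and their median change was 0.001. By line, 12 of these 21 differed (57.1%, against 44.7% of all genes) and 2 passed for the interaction (9.52%, against 11.3%). These 2, named after their values were seen, were Foxo1, a transcription factor that AKT inhibits, and Eif4ebp1, a translation repressor that mTOR inhibits. Foxo1 changed by -0.89 in cKO1, 0.28 in pcKO1 and -0.13 in cKO2 (limma adjusted p = 0.0270), and Eif4ebp1 by 0.65, -0.03 and 0.15 (limma adjusted p = 0.0494).

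Of 23 genes for IGF binding and processing outside the 10 genes, 18 were measured and 14 tested. In Cre against GFP 0 were lower and 0 higher after adjustment, with a median change of -0.06. At an unadjusted p under 0.05, 2 of the 14 were lower, against 174 of all 8488 genes, and 0 were higher, against 138. Furin, a protease that processes the Igf1r precursor, was at 10.19, 10.41 and 10.64 after Cre and at 10.63, 10.65 and 10.89 with GFP in cKO1, cKO2 and pcKO1. Its log2 change of -0.31 ± 0.13 (SE) had the same sign in all 3 lines and a limma adjusted p of 0.967. The other was Ccn4, a matricellular protein, at -0.40 ± 0.16 (SE) with -0.65 in cKO1, -0.54 in pcKO1 and 0.0016 in cKO2. By line, 9 of these 14 differed (64.3%, against 44.7% of all genes). For the interaction 4 passed (28.6%, against 11.3%), namely Ccn2, Ccn4, Ccn5 and Htra1, a secreted protease that can cleave Igfbp5. Htra1, named like the other 3 after its values were seen, changed by -1.10 in cKO1, 0.04 in pcKO1 and -0.33 in cKO2.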

How the data were processed

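Biotinylated cRNA from MEFs was read on 8 Illumina MouseRef-8 BeadChip arrays. The authors deposited, per the labels from GenomeStudio (version not given there), linear intensity values per probe, each array scaled to a mean of 508.29 without background subtraction. They also deposited average signal intensity with a detection p-value per probe, in columns that could be assigned by name to an arm and to no line. Mean signal was 341 to 626 in Cre and 435 to 622 in GFP columns, and 9741 to 10888 and 10134 to 10580 probes were detected. The number of arrays limits the precision.

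Intensities were corrected by normexp (offset 50), put on the log2 scale and quantile normalized in R 4.3.3 with limma 3.58.1. The platform annotation gave 1 symbol to 23978 of 25697 probes, several symbols to 0 and no symbol to 1719. A probe was kept if its detection p-value was below 0.05 on 3 or more arrays (11152 probes), and the brightest probe stood for each gene (8488 genes, 639 unnamed). Arms were compared over 3 line means with the line as a block, lines with the arm as a covariate, and the interaction over 8 arrays, by eBayes with a trend, two-sided, with Benjamini-Hochberg adjustment over all genes at 0.05. The labels pair each Cre array with a GFP array of its line, and deviations from the arm means correlated at 0.818, 0.919 and 0.749 within cKO1, cKO2 and pcKO1. "At least" folds set values under 6.61 to 6.61. The fits were tested on simulated data.

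All IGF probes, H3f3b, the 5 genes most like the IGF gene of widest GFP range, and listed pathway genes with an unadjusted p under 0.05 and 1 sign in all lines were named, at most 8. The genes and lists were chosen with earlier results of these data known. Alternatives changed the correction, normalization, filter, probe choice, trend, duplicates and lines, and set levels under 6.61 to 6.61. Gene coordinates and promoters are those of RefSeq (GRCm38.p6). Probe positions were not used here. Of the 61 listed pathway genes, 26 were not analysed here, 13 of them because their probes failed the filter.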

Additional observations from a re-analysis of the deposited data

Results flagged for a closer look

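Among 16 sets of 4 arrays (8 IGF genes in 2 arms), 1 had an array far from the others by Dixon's test, as chance alone gives in about 5% of sets. It was Igfbp5 in the GFP arm, where cKO1 stood at 6.59, under the background ceiling of 6.61, and the other 3 arrays between 9.42 and 9.63, a gap of 0.931 of the whole range. The 4 arrays are of 3 lines, not replicates of 1 culture.

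The Cre minus GFP difference itself differed between lines by the limma interaction test for 5 of the 8 IGF genes, against 11.3% of all genes. The spread in that test comes from the cKO2 duplicates alone. The adjusted p was 3.97e-06 for Igfbp2, 1.47e-05 for Igf2, 0.00886 for Igfbp4, 0.0250 for Igfbp5 and 0.0496 for Igfbp7. Igf2 was higher after Cre in cKO1 and lower in the other lines. Igfbp2 was lower after Cre in cKO1, where its Cre value was under the background ceiling, and higher in the other lines.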

How the results depend on the processing

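In Cre against GFP, 0 genes passed in the setting reported and under 11 alternatives, among them the fit without the replicate block, which left the pairing by line out (0 genes, 0 IGF genes). With median scaling or no filter 1 gene passed (H3f3b), with the deposited values as they stand 3 did (H3f3b, H3c14 and Ccl5), and with cKO2 duplicates as separate arrays 5 did (also H3c13 and ILMN_2906728). Leaving out a line gave 3 genes (without cKO2: H3f3b, Prl2c3 and Prl2c4) to 100 genes (without cKO1; 69 without pcKO1) and 0 to 2 IGF genes, the 2 being Igf2 and Igfbp2 without cKO1. Over the lines left out, the changes ran from -0.74 to 0.21 for Igf2, -0.47 to 0.65 for Igfbp2, -0.17 to 0.0771 for Igf2r, -0.11 to 0.26 for Igfbp4 and -0.0214 to 0.24 for Igfbp7. Igfbp2 also turned to -0.14 with an offset of 16 and -0.0913 with neqc, and Igfbp4 to -0.0283 with separate duplicates and -0.0268 with neqc. The cause was not tested, and none of these reversed values passed.

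Between lines, 5 to 7 of the IGF genes passed under 19 alternatives, 5 where fewer IGF genes were left by the stricter filter. Leaving out 1 of the 6 line means, an alternative chosen after seeing the data as was the fit without pcKO1, gave 2206 genes (without Cre cKO2) to 5862 genes (without GFP cKO1). Igf1r then ran from -0.37 to 0.11 in cKO1 minus cKO2, from -0.25 to 0.22 in cKO1 minus pcKO1 and from -0.36 to 0.13 in pcKO1 minus cKO2, where the first cKO2 arrays alone gave 0.0093. Igfbp4 ran from -0.40 to 0.13 in cKO1 minus pcKO1. For the interaction, 465 genes and 2 IGF genes passed without a trend, 3 IGF genes (of 6 left) with the stricter filter, and 55 genes (without cKO1) to 775 genes (without pcKO1), each with 3 IGF genes, with a line left out. With levels under 6.61 set to 6.61, an alternative chosen after seeing the data, 0 genes and 0 IGF genes passed for the interaction (Igf2 and Igfbp2 at an adjusted p of 0.13 each), and 673 genes and 4 IGF genes passed once the 124 genes with tied duplicates were left out. Apart from that fit over all genes, Igf2 (adjusted p up to 0.0135) and Igfbp2 (up to 0.00484) passed under each alternative that tested them. With median scaling Igf2r passed for the interaction (adjusted p = 0.0261) and no longer in pcKO1 minus cKO2 (0.0722). Igfbp7 no longer passed for the interaction with an offset of 16, cyclic loess, no filter or no trend (adjusted p from 0.0515 to 0.243), nor did Igfbp4 and Igfbp5 without a trend (0.0923 and 0.0825). Levels near 6.61 are limited by background, and with 1 array per arm in cKO1 and pcKO1 no spread between cultures of a line was measured.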
